A study of Mus musculus with 30 samples.

Results

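Transcript levels in gonadal white fat (gWAT), the visceral depot beside the testes, were compared after 48 h of high-fat diet (HFD) in mice of 2 feeding histories. The 48 h response was taken as the mean of 2 differences, lean-HFD minus lean and formerly obese-HFD minus formerly obese, so that 12 arrays of mice that ended on 48 h of HFD were set against 12 arrays of mice that ended on control diet, 24 of the 30 arrays of the series. Lean-HFD mice had 27 weeks of control diet and then their only HFD for 48 h, and lean mice had the 27 weeks of control diet alone. Formerly obese-HFD mice had 20 weeks of HFD, 7 weeks of control diet and then HFD again for 48 h, and formerly obese mice had the 20 weeks of HFD and 7 weeks of control diet alone. All mice were wild type C57BL6/J males of 35 weeks, the HFD was rich in sucrose and gave 58% of energy as fat, the control diet gave 10.5%, and each group had 6 arrays. Obese mice, which had HFD for 27 weeks, were left out of the fit, and their 6 arrays appear as levels.

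White adipose tissue stores dietary fat and also makes fatty acids from carbohydrate. In this de novo lipogenesis, citrate exported from mitochondria or acetate is turned into cytosolic acetyl-CoA, which is built into palmitate and then elongated and desaturated, with NADPH as reductant. The genes of this route are under the control of SREBP and ChREBP transcription factors, and they are known in rodents for low expression on fatty diets and high expression on diets rich in carbohydrate.

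The 6 arrays of a group correlated with each other about as closely as with arrays of other groups in the fit (median r across probe sets 0.972 within and 0.971 between groups), and median levels per array lay between 4.88 and 4.971 log2 units. The adipocyte markers were high throughout, with mean log2 levels between 8.81 for Lipe, the hormone-sensitive lipase, and 12.85 for Fabp4, the adipocyte fatty acid binding protein. Array levels were scaled against all other transcripts of a sample, and in whole tissue fewer cells of a type and less RNA per cell cannot be told apart. Precision is limited by the number of arrays. The labels do not say how the animals were housed or processed, and p-values cover only the spread between samples labelled as separate.

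Genes of 4 fatty acid synthesis enzymes, Acly, Fasn, Elovl6 and Me1, fell by 1.63-fold to 2.66-fold after 48 h of HFD, and each was lower in mice with and in mice without a history of obesity. Of 41345 probe sets, 23 were called on the average of both histories (0.0556%), 5 of them up and 18 down (0.0121% and 0.0435%). A call needed an adjusted p under 0.10 (limma, Benjamini-Hochberg over all probe sets), a fold over 1.3 and a mean level over 16 on the linear scale in at least 1 of the 4 groups. Of the 23, 15 carried exactly 1 gene symbol, 1 carried several and 7 carried none, and 2 of the probe sets repeated the values of another exactly. A looser set, with an unadjusted p under 0.01 and the same filters, held 311 probe sets (0.752%), 148 up (0.358%) and 163 down (0.394%). With 1 array left out in turn, the count of calls ranged between 5 (without lean replicate 6 or formerly obese replicate 3) and 57 (without lean-HFD replicate 2).

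Acly encodes ATP citrate lyase, which cleaves exported citrate to acetyl-CoA. Its log2 level ran from 8.17 to 9.50 with a median of 8.46 in lean-HFD mice, against 8.76 to 10.32 with a median of 9.79 in lean mice. It ran from 8.07 to 9.17 with a median of 8.55 in formerly obese-HFD mice, against 9.53 to 10.18 with a median of 9.82 in formerly obese mice. All 6 formerly obese-HFD arrays lay below all 6 formerly obese arrays, as for 73 probe sets in that direction (0.177%), and 5 of the 6 lean-HFD arrays lay below every lean array. The mean difference was -1.21 ± 0.17 log2 (SE of the limma fit, 24 arrays), a 2.32-fold fall (limma adjusted p = 0.0112), made of -1.15 in lean and -1.28 in formerly obese mice.

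Fasn encodes fatty acid synthase, which builds palmitate. Its log2 level ran from 9.53 to 11.02 with a median of 10.30 in lean-HFD mice, against 10.81 to 11.87 with a median of 11.44 in lean mice. It ran from 9.45 to 11.30 with a median of 9.999 in formerly obese-HFD mice, against 11.02 to 11.76 with a median of 11.35 in formerly obese mice. In each history 5 of the 6 arrays after HFD lay below every control array. The mean difference was -1.13 ± 0.19 log2, a 2.19-fold fall (limma adjusted p = 0.0345), with -1.14 in lean and -1.12 in formerly obese mice.

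Elovl6, the elongase that lengthens palmitate, showed the largest fall of a named gene. Its log2 level ran from 6.15 to 7.81 with a median of 7.18 in lean-HFD mice, against 7.52 to 9.55 with a median of 8.29 in lean mice. It ran from 5.77 to 8.32 with a median of 6.69 in formerly obese-HFD mice, against 7.95 to 8.96 with a median of 8.31 in formerly obese mice. The groups overlapped in both histories, by 1 formerly obese-HFD array and by 2 lean-HFD arrays. The mean difference was -1.41 ± 0.25 log2, a 2.66-fold fall (limma adjusted p = 0.0532), with -1.27 in lean and -1.55 in formerly obese mice.

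Me1, the cytosolic malic enzyme that supplies NADPH, fell less. Its median log2 level was 10.23 in lean-HFD mice (9.54 to 10.88), against 10.99 in lean mice (10.39 to 11.40). It was 10.11 in formerly obese-HFD mice (9.59 to 10.89), against 10.81 in formerly obese mice (10.47 to 11.16). In both histories 5 of the 6 arrays after HFD lay below every control array. The mean difference was -0.71 ± 0.14 log2, a 1.63-fold fall (limma adjusted p = 0.0905). Acly and Fasn stayed called in all 24 fits that left out 1 array, Elovl6 in 15 and Me1 in 5.

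The arrays of obese mice, after 27 weeks on the same HFD, had median log2 levels of 11.03 for Fasn, 9.30 for Acly, 8.51 for Elovl6 and 11.09 for Me1. The lowest obese array lay above the median of both 48 h groups for each of these 4 genes. Beside lean mice on control diet the medians went both ways, with overlapping arrays. The obese median was higher for Elovl6 (8.29 in lean mice) and Me1 (10.99), and lower for Acly (9.79) and Fasn (11.44). The obese range lay inside the lean range for Acly, Fasn and Elovl6, and overlapped with it for Me1. These levels are a description, since the obese arrays stood outside the fit.

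**Figure D1:**
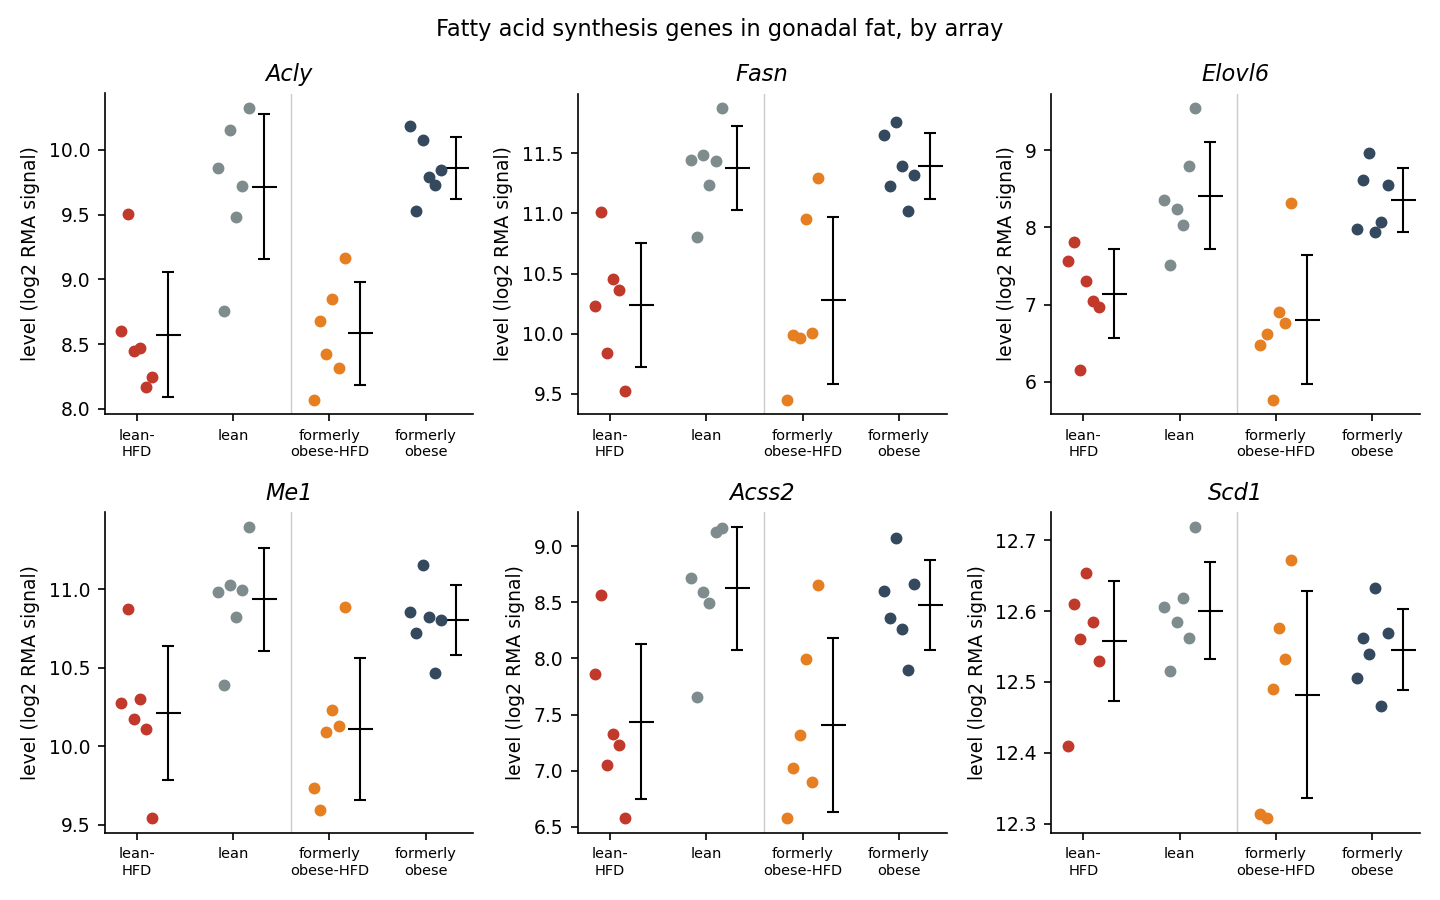
Log2 level of 6 fatty acid synthesis genes in each array of the 4 groups (points; horizontal mark and bar, mean ± SD, n = 6), with each HFD group left of its control group and axes that do not start at 0. Acly, Fasn, Elovl6, Me1 and Acss2 sit lower after 48 h of HFD in both histories, while Scd1 lies between 12.31 and 12.72 in all 4 groups.

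The genomic sequence before the start of 3 of these genes is shown so that the members that moved together can be set side by side. RefSeq windows were found for Acly, Elovl6 and Me1, with 2 windows for Me1 of which the first is shown. Each stretch is the 250 bases before the annotated start in RefSeq (build GRCm38.p6), given in the direction of transcription, with capitals for the GC box GGGCGG on either strand, the letters that Sp1 factors are known to bind.
Acly, chr11:100528001-100528250, minus strand: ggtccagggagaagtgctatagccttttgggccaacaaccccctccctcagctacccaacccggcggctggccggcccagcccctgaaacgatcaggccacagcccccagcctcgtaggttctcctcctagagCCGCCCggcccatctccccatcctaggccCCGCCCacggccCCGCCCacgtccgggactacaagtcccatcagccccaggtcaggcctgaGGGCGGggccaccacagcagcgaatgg
Me1, chr9:86695915-86696164, minus strand: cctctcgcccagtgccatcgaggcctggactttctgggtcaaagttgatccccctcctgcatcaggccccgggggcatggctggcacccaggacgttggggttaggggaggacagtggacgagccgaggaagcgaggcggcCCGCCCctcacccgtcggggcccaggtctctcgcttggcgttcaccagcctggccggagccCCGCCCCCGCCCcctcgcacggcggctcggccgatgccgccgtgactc
Elovl6, chr3:129532136-129532385, plus strand: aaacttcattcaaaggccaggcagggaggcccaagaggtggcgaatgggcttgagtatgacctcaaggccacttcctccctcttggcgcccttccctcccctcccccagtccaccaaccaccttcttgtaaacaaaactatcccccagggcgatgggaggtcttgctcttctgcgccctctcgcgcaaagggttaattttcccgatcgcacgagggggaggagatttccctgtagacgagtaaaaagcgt

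The Acly window held 4 GC boxes, which began 117, 88, 76 and 27 bases before the start, and the Me1 window held 3, which began 109, 48 and 42 bases before it, the last 2 adjacent to each other. The Elovl6 window held 0. Over 32851 windows of the same length, 32.7% held a GC box. The E-box CACGTG, the sterol element TCACNCCAC and the CCAAT box, searched on both strands, were in 0 of the 3 windows, against 6.02%, 1.05% and 33.8% of all windows. None of these motifs overlapped another in the 3 windows, and a match or its absence describes the letters in these windows alone.

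The wider list of fatty acid synthesis genes did not move as 1 block. Of 22 genes listed, 19 had a probe set of their own. On the average 4 of the 19 were called down and 0 up, and 6 of the 19 were in the looser set, all down. Of all 22184 genes with a probe set of 1 symbol, 12 were called down and 2 up. The looser set held 95 of them down and 71 up. The median difference over the 19 was -0.05 log2, beside -0.00242 over all 22184 genes with a probe set of 1 symbol.

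The other 2 members of the looser set were Acss2 and Acaca, which act at the entry of the route. Acss2 turns acetate into cytosolic acetyl-CoA, and its median log2 level was 7.28 in lean-HFD mice (6.58 to 8.57), against 8.65 in lean mice (7.65 to 9.16). It was 7.17 in formerly obese-HFD mice (6.58 to 8.65), against 8.48 in formerly obese mice (7.90 to 9.07), and 4 of the 6 arrays after HFD lay below every control array in each history. Its difference of -1.13 ± 0.24 log2 was as large as that of Fasn but narrowly missed the call (limma adjusted p = 0.11), and the gene was singled out after its values were seen. Acaca, the acetyl-CoA carboxylase of lipogenesis, differed by -0.63 ± 0.18 (limma adjusted p = 0.315). Its sister Acacb, whose malonyl-CoA restrains fatty acid oxidation, differed by 0.60 in the other direction (limma adjusted p = 0.626).

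Scd1, the main stearoyl-CoA desaturase of fat, differed by -0.05 ± 0.05 log2. Its median level was 12.57 in lean-HFD mice and 12.59 in lean mice, and 12.51 in formerly obese-HFD mice and 12.55 in formerly obese mice, close to the 13.857 that was the highest value of any probe set. The transcription factors of the route showed small differences at the transcript level, 0.03 for Srebf1 and 0.19 for Mlxipl, which encodes ChREBP. Thrsp, a lipogenic nuclear protein gene that responds to thyroid hormone, differed by -0.12. These 4 were not called (limma adjusted p = 0.911, 0.984, 0.759 and 0.836).

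**Figure D2:**
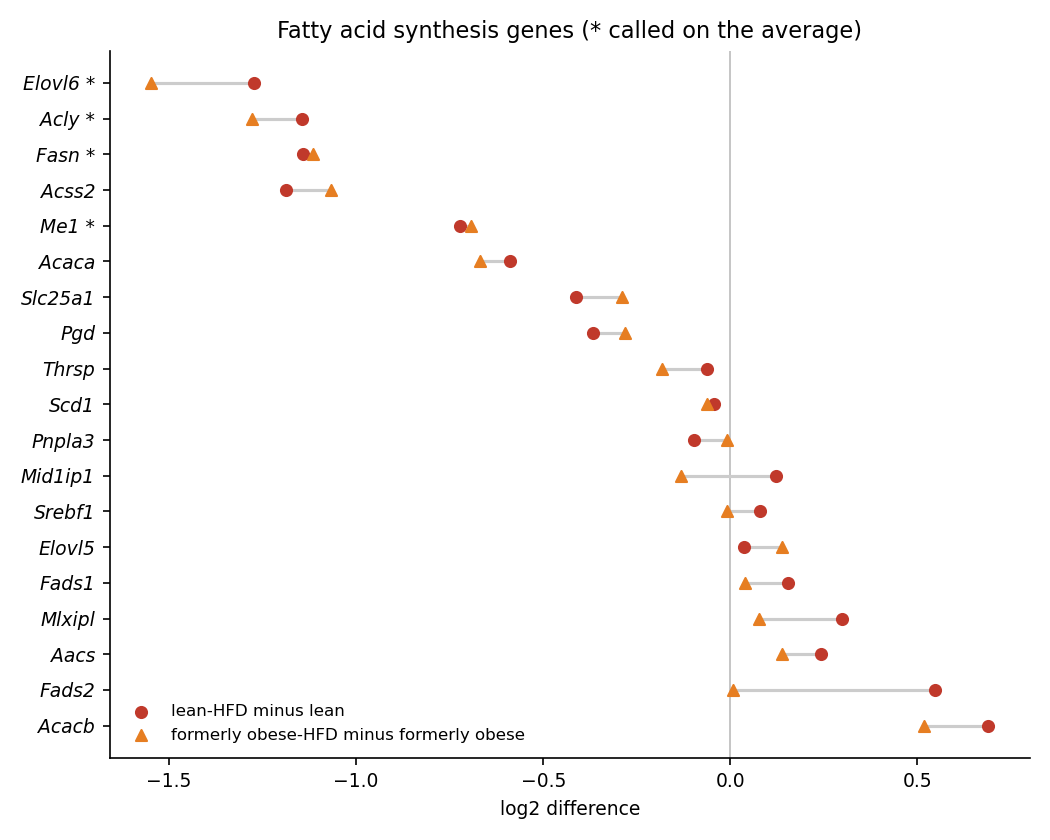
Log2 difference of each measured fatty acid synthesis gene in lean mice (circles, lean-HFD minus lean) and in formerly obese mice (triangles, formerly obese-HFD minus formerly obese), sorted by the average, with a star for genes called on the average. The 6 genes with the lowest averages lie between -1.55 and -0.59 in both histories, and Acacb lies at the other end.

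Genes outside lipogenesis also fell in both histories. Pla2g2e, a secreted phospholipase A2, differed by -0.92 ± 0.19 log2, and Trhde, the ectoenzyme that degrades thyrotropin-releasing hormone, by -0.88 ± 0.16. Enpep, an aminopeptidase that cleaves angiotensin II, differed by -0.75 ± 0.14. Among matrix genes 1 of 23 was called, Col15a1, a basement membrane collagen, at -0.70 ± 0.14. Ntsr2, a neurotensin receptor, differed by -0.63 ± 0.12, and Fmr1, an RNA-binding regulator of translation, by -0.58 ± 0.11. The limma adjusted p of these 6 genes lay between 0.0651 and 0.0904, and they stayed called in 6 to 12 of the 24 fits that left out 1 array.

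Enpep and Col15a1 show how far the groups overlapped. Enpep had a median log2 level of 8.91 in lean-HFD mice (8.40 to 9.40), against 9.70 in lean mice (9.30 to 10.05), and 8.68 in formerly obese-HFD mice (8.39 to 9.30), against 9.48 in formerly obese mice (9.15 to 9.93). Col15a1 had a median of 7.39 in lean-HFD mice (6.74 to 7.96), against 7.99 in lean mice (7.50 to 8.28), and 6.70 in formerly obese-HFD mice (5.87 to 6.96), against 7.46 in formerly obese mice (7.08 to 7.60). The formerly obese-HFD arrays of Col15a1 lay apart from the formerly obese arrays, whereas 3 of the 6 lean-HFD arrays reached into the lean range. Fmr1, Ntsr2 and Trhde each had 4 lean-HFD and 5 formerly obese-HFD arrays below every control array of the same history, and Pla2g2e had 3 and 5.

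Of the genes called on the average, 3 are imprinted genes expressed from the paternal allele, a feature noticed after the values were seen. Plagl1, a zinc finger transcription factor, fell on both of its probe sets, with differences of -0.87 ± 0.17 and -0.64 ± 0.12 log2 (limma adjusted p = 0.0651 each). On the brighter probe set its median level was 7.54 in lean-HFD mice (7.43 to 8.35), against 8.45 in lean mice (7.96 to 9.18), and 7.11 in formerly obese-HFD mice (5.999 to 7.57), against 7.92 in formerly obese mice (7.72 to 8.28). Ndn, which encodes necdin, differed by -0.46 ± 0.09 (limma adjusted p = 0.0908). Of the 24 fits that left out 1 array, Ndn stayed called in 6 and the brighter Plagl1 probe set in 10.

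Peg3, another zinc finger protein gene, moved in the opposite direction. Its median log2 level was 8.26 in lean-HFD mice (7.92 to 8.93), against 7.56 in lean mice (6.67 to 7.94), and 8.25 in formerly obese-HFD mice (7.54 to 8.72), against 7.55 in formerly obese mice (7.15 to 7.99). The difference of 0.78 ± 0.16 log2 was called narrowly (limma adjusted p = 0.0965), was called in 3 of the 24 fits that left out 1 array, and was not called with each array centred on its median (0.76, adjusted p = 0.108). Of 26 imprinted genes measured from a list of 30 written after this was seen, the other 23 were outside the looser set, Mest, Igf2, Dlk1 and Cdkn1c among them, and the median over the 26 was -0.03 log2.

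Vnn1 was the only gene of fatty acid oxidation and PPAR-alpha regulation called among 23 measured. It encodes pantetheinase, which releases cysteamine and the precursor of coenzyme A, and in mouse liver it is a known target of PPAR-alpha. Its log2 level ran from 5.37 to 6.98 with a median of 6.17 in lean-HFD mice, against 4.46 to 5.73 with a median of 4.76 in lean mice. It ran from 5.62 to 6.74 with a median of 6.04 in formerly obese-HFD mice, against 5.12 to 5.91 with a median of 5.41 in formerly obese mice. In lean mice 5 of the 6 HFD arrays, and in formerly obese mice 4, lay above every control array. The rise was 1.01 ± 0.18 log2, or 2.02-fold (limma adjusted p = 0.0532), with 1.34 in lean and 0.68 in formerly obese mice. Vnn1 stayed called in 15 of the 24 fits that left out 1 array.

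The remaining calls carried no gene symbol or several. A probe set without a gene symbol, which stood on the array under 2 identifiers with identical values, showed the largest difference of the calls made without a hepatocyte score (the mean log2 level of Alb, Apoa1 and Fgb in an array), 2.26 log2 or 4.78-fold up (limma adjusted p = 0.0345), with 3.03 in lean and 1.49 in formerly obese mice. With that score as a covariate the difference was 1.25 ± 0.22 log2 (limma adjusted p = 0.0675). A further unnamed probe set rose by 0.65 log2, near the lowest level admitted. It passed the level filter, 4 on the log2 scale, through the lean-HFD mean alone (4.005). Its mean was 3.294 in lean, 3.876 in formerly obese-HFD and 3.294 in formerly obese mice. On the lower side unnamed probe sets fell by between 0.39 and 1.42 log2. The probe set that carries several symbols, Tkt and Mir3076, fell by 0.70 log2 (limma adjusted p = 0.0345). It was also called with the score (-0.74, limma adjusted p = 0.0824).

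Each of the 23 called probe sets moved the same way in both histories, 20 of them with a fold over 1.3 in each and all 23 with an unadjusted p under 0.05 in each. This count is largely fixed by calling the mean of both differences, and over all probe sets 52.1% had the same sign in both. Of the 311 probe sets of the looser set, 309 had the same sign, and 136 had an unadjusted p under 0.05 in each history.

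A reading that does not rest on the average came from separate fits of 12 arrays for each history, which share no array. Of 90 probe sets lower in lean-HFD than in lean mice at an unadjusted p under 0.01 with the same filters, 67.8% were also lower in formerly obese-HFD than in formerly obese mice, where 51% of all probe sets above the level were lower, and 15 met the same criteria there (16.7% of the 90). Of 166 chosen as lower in formerly obese-HFD mice, 71.7% were also lower in lean-HFD mice, where 48.2% of all probe sets were lower (the same 15, or 9.04% of the 166, met the criteria). Of 87 chosen as higher in formerly obese-HFD mice, 70.1% were higher in lean-HFD mice, where 51.7% of all were, and 7 met the criteria (8.05%). Of 175 chosen as higher in lean-HFD mice, 58.3% were higher in formerly obese-HFD mice, where 49% of all were, and the same 7 met the criteria (4%). These 7 counted 1 unnamed probe set under both of its identifiers. The 22 probe sets that met the criteria the same way in both histories held Acly, Fasn, Elovl6, Acss2, Me1, Enpep, Trhde, Ntsr2, both probe sets of Plagl1 and Odf3l1, a gene of sperm flagella, on the lower side, and Vnn1, Peg3 and Tdo2 on the higher side.

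With the hepatocyte score as a covariate in the same separate fits, the sharing was smaller for probe sets chosen in lean mice. Of 219 chosen as lower in lean-HFD mice, 44.7% were also lower in formerly obese-HFD mice, under the 52.2% of all probe sets above the level, and of 247 chosen as higher, 51.8% were also higher, beside 47.8% of all. Of 183 chosen as lower in formerly obese-HFD mice, 70.5% were also lower in lean-HFD mice, beside 45.8% of all, and of 89 chosen as higher, 58.4% were also higher, beside 54.2% of all. The criteria were met the same way in both histories by 19 lower probe sets and by 2 higher ones. Acly, Fasn, Elovl6, Me1, Enpep, Trhde, Odf3l1 and 1 probe set of Plagl1 were among the lower ones. The 2 higher ones had no symbol and identical values, so they count as 1 measurement. Vnn1, Peg3, Tdo2, Acss2 and Ntsr2 no longer met the criteria in both.

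Within a single history, 0 probe sets were called in either. In lean-HFD against lean mice 2614 probe sets had an unadjusted p under 0.05 (6.32%), and in formerly obese-HFD against formerly obese mice 2238 had (5.41%). The looser set held 407 probe sets in lean mice (0.984%), 295 up (0.714%) and 112 down (0.271%), and 227 in formerly obese mice (0.549%), 91 up (0.22%) and 136 down (0.329%). No probe set had all 12 arrays after HFD on one side of all 12 control arrays, and none had both histories fully apart in the same direction (0 of 41345).

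**Figure D3:**
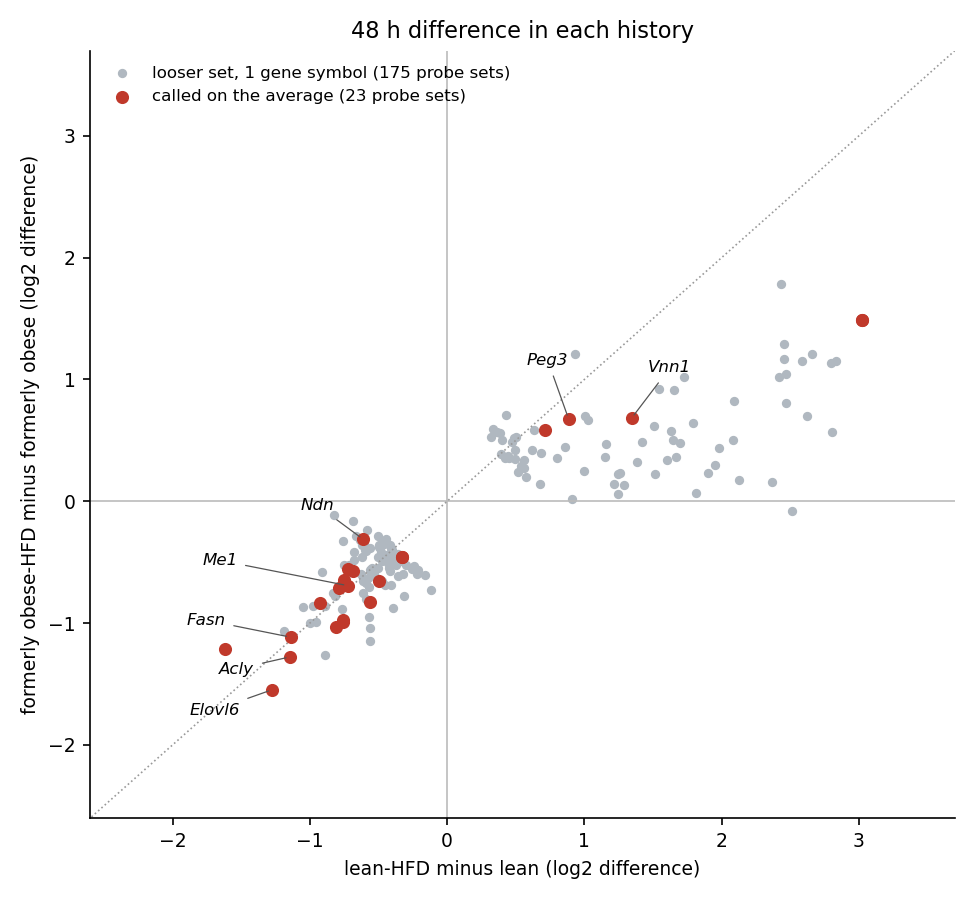
Log2 difference after 48 h of HFD in lean mice (horizontal axis) and in formerly obese mice (vertical axis) for the 23 probe sets called on the average (red) and the 175 probe sets of the looser set with 1 gene symbol (grey), with the line of equal differences dotted. The lower genes lie along the line, while many of the higher probe sets lie below it, at 1 to 3 log2 in lean mice.

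The looser set on the higher side was led by transcripts of hepatocytes, which white fat is not known to make in quantity. Among named genes outside the calls, the largest differences were those of Mup3, a major urinary protein (2.11 log2), Fgb and Fgg, chains of fibrinogen (1.99 and 1.97), Pzp, a protease inhibitor of plasma (1.93), and Serpina1e, an alpha-1 antitrypsin (1.87), with limma adjusted p between 0.118 and 0.39. Mup3, the Serpina1 genes and Mug1 belong to families of near-identical copies, so their probe sets can share signal. Of 20 hepatocyte genes that formed a separate list, all 20 were higher on the average, and 18 of them were higher in both histories. Of the 20, 9 were in the looser set and 0 were called, with a median of 1.17 log2 (1.98 in lean and 0.48 in formerly obese mice). Of all 22184 genes with a probe set of 1 symbol, 10847 were higher, and 71 were in the looser set as higher.

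The amount of hepatocyte transcript differed widely between arrays of the same group. A score, the mean log2 level of Alb (albumin), Apoa1 (an apolipoprotein of HDL) and Fgb, ran from 6.404 to 10.8 with a median of 9.35 in lean-HFD mice, against 5.39 to 9.16 with a median of 6.67 in lean mice. It ran from 5.29 to 7.90 with a median of 6.97 in formerly obese-HFD mice, against 5.04 to 7.90 with a median of 5.69 in formerly obese mice. The score was over 9 in 4 arrays, lean-HFD replicates 1, 2 and 4 and lean replicate 4. The groups overlapped in both histories, and obese mice had the lowest scores, 4.82 to 6.16.

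**Figure D4:**
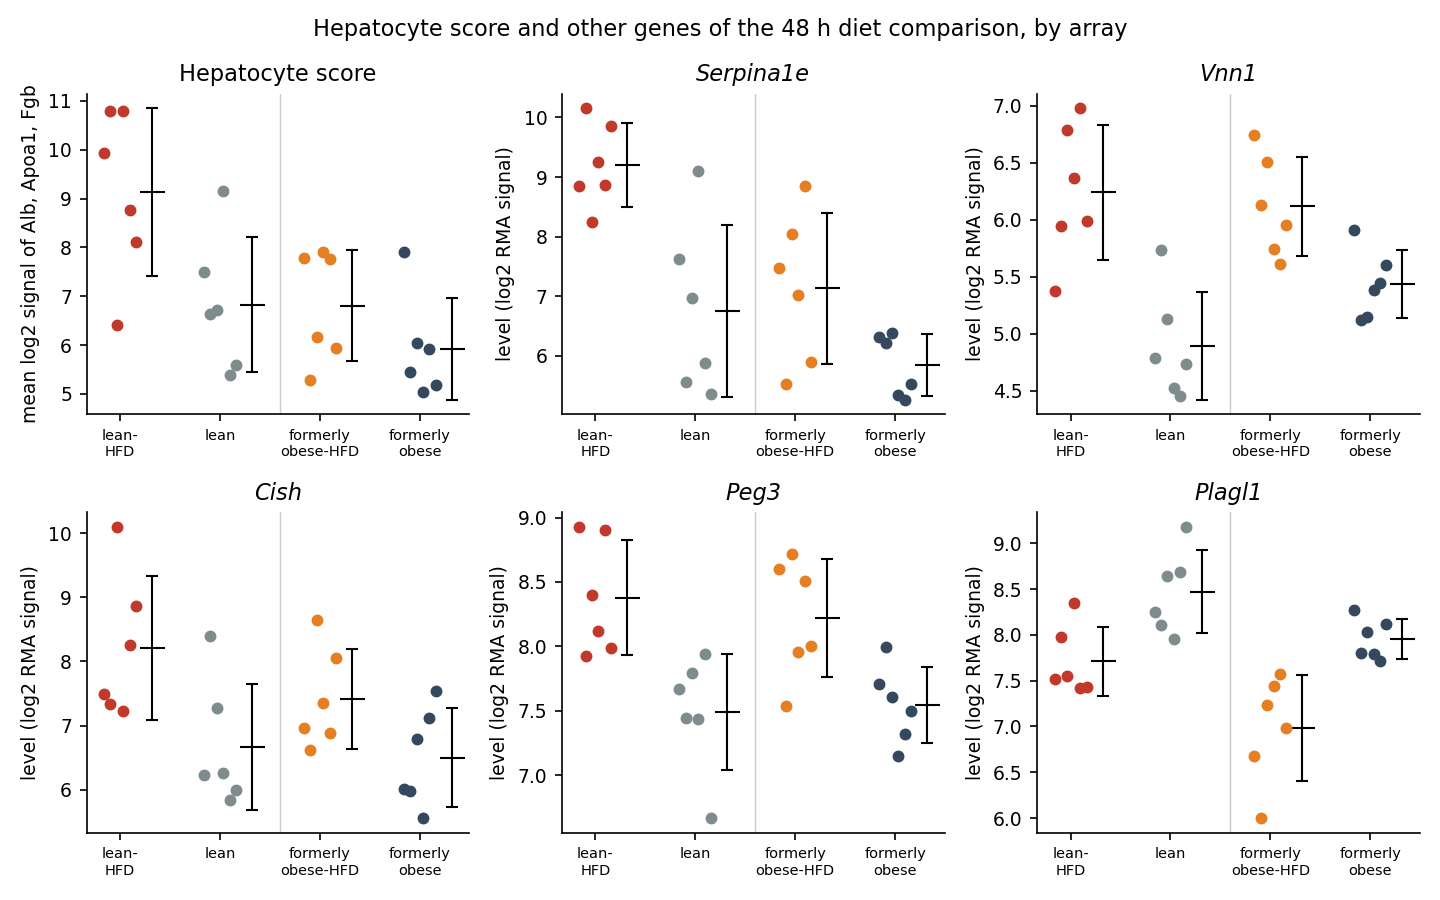
Hepatocyte score (mean log2 level of Alb, Apoa1 and Fgb) and log2 level of 5 further genes in each array (points; horizontal mark and bar, mean ± SD, n = 6), each HFD group left of its control group, on axes that do not start at 0. Lean-HFD arrays spread from 6.404 to 10.8 in the score, whereas Plagl1 is lower and Vnn1 and Peg3 are higher after HFD in both histories.

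The comparison was therefore repeated with the score of each array as a covariate. The fall of the lipogenic genes kept its size. The higher level of hepatocyte transcripts shrank to near 0, as it must for genes that vary with a covariate made of such transcripts. The score itself was higher after HFD. Its mean was 9.13 in lean-HFD against 6.83 in lean mice, and 6.81 in formerly obese-HFD against 5.93 in formerly obese mice. With the score, Acly differed by -1.26 ± 0.20, Fasn by -1.24 ± 0.22, Elovl6 by -1.44 ± 0.30 and Me1 by -0.77 ± 0.17 log2. Acly and Fasn stayed called (limma adjusted p = 0.0675 and 0.0752), while Elovl6 and Me1 missed the call (0.177 and 0.201), with larger standard errors than without the score. Vnn1 differed by 1.11 ± 0.21 (adjusted p = 0.117) and Peg3 by 0.71 ± 0.20 (adjusted p = 0.335).

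With the score, 10 probe sets were called (0.0242%), 3 up (0.00726%) and 7 down (0.0169%), and all 10 moved the same way in both histories. The 3 up counted 1 unnamed probe set under both of its identifiers. Of the 10, 9 had been called without the score, among them Acly, Fasn, Col15a1 and the dimmer probe set of Plagl1. The 14 probe sets called only without the score, and the 9 called both ways, all had an unadjusted p under 0.01 with it. The looser set held 329 probe sets with the score (0.796%), of which 173 were among the 311 found without it. Within a single history the score left 0 calls, with 2583 probe sets at an unadjusted p under 0.05 in lean mice (6.25%) and 2174 in formerly obese mice (5.26%).

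The median over the 20 hepatocyte genes was 0.01 log2 with the score, beside 1.17 without it. Alb stood at -0.28 with and 1.33 without the score, Apoa1 at 0.07 and 1.455, Fga at -0.02 and 1.69, and Mup3 at 0.39 and 2.11. Serpina1e kept 1.04 ± 0.37 of its 1.87 log2 (limma adjusted p = 0.551 with the score). The score genes are themselves part of the covariate, and other hepatocyte genes vary with it, so the values of both are a description.

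The call gained with the score was a probe set of Cish, a SOCS family inhibitor of cytokine signalling that STAT5 is known to induce. On that probe set the difference was 1.23 log2 with the score (limma adjusted p = 0.0675) and 0.81 without it. On the brighter Cish probe set it was 1.72 ± 0.39 with the score (adjusted p = 0.201) and 1.23 ± 0.35 without it (adjusted p = 0.311). The brighter probe set had a median log2 level of 7.87 in lean-HFD mice (7.22 to 10.10), against 6.24 in lean mice (5.84 to 8.40), and 7.15 in formerly obese-HFD mice (6.62 to 8.64), against 6.39 in formerly obese mice (5.56 to 7.54). In each history 2 of the 6 arrays after HFD lay above every control array, so the groups overlapped in both.

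**Figure D5:**
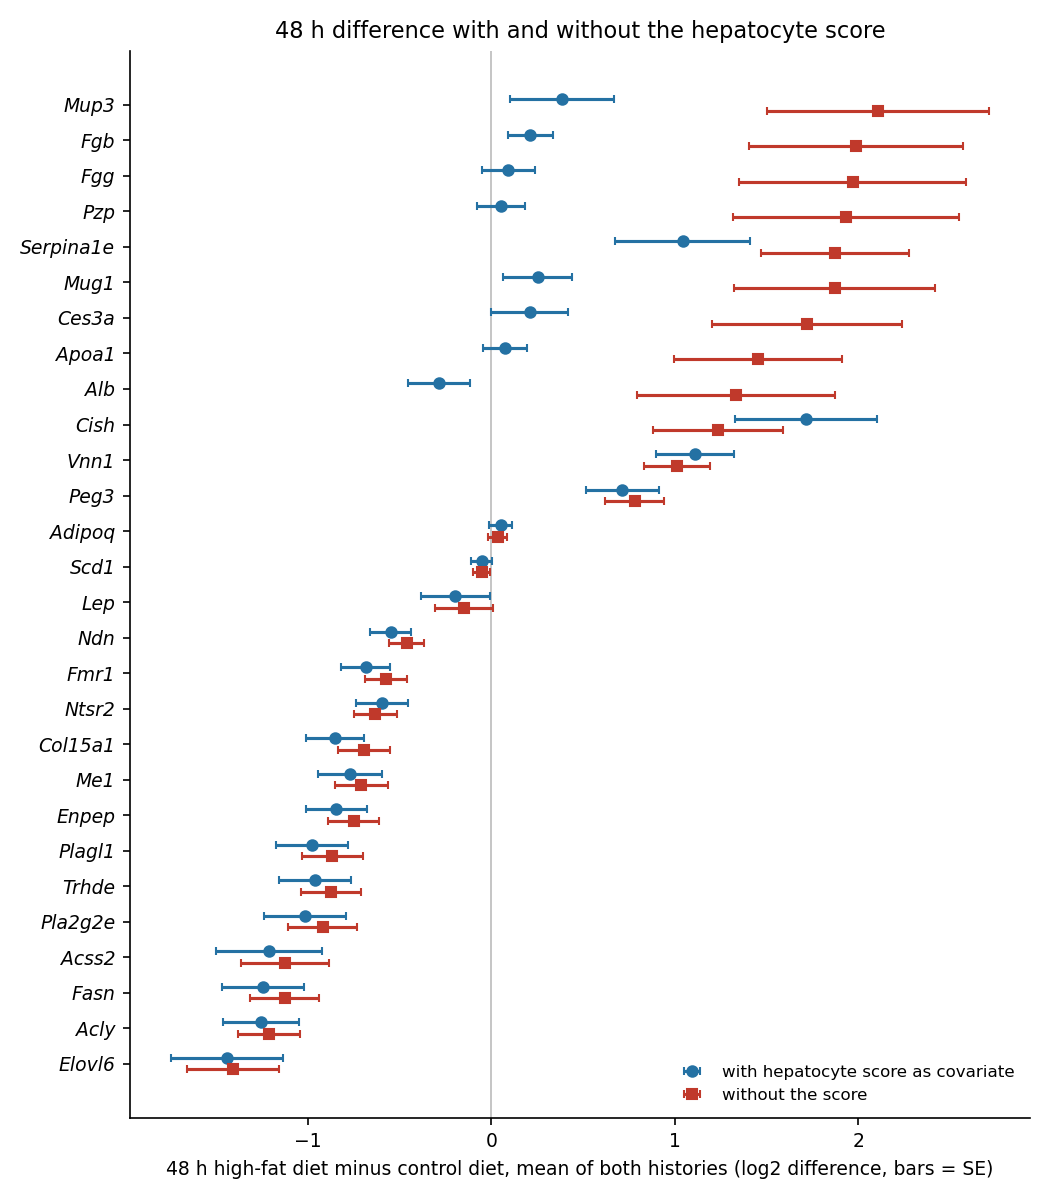
Average log2 difference after 48 h of HFD of named genes with the hepatocyte score as a covariate (circles) and without it (squares), with the SE of the limma fit as bars. Elovl6, Acly and Fasn hold their place between -1.44 and -1.13, whereas Mup3, Fgb, Fgg and Pzp lie at 0.05 to 0.39 with the score and at 1.93 to 2.11 without it.

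The 4 arrays with a score over 9 were also left out, a step chosen after the values were seen, which left 3 lean-HFD, 5 lean, 6 formerly obese-HFD and 6 formerly obese arrays. The average lipogenic fall was as large or larger on these 20 arrays, at -1.38 for Acly, -1.31 for Fasn, -1.66 for Elovl6 and -0.85 for Me1 (limma adjusted p = 0.00851, 0.0196, 0.0291 and 0.0385). The change came from the lean history alone, with its 3 lean-HFD arrays, where the differences were -1.48, -1.50, -1.77 and -1.02. Formerly obese mice lost no array, and their differences stayed at -1.28, -1.12, -1.55 and -0.69. Acss2 was called as well, at -1.38 ± 0.25 (adjusted p = 0.0385). In all 80 probe sets were called (0.193%), 23 up and 57 down, 79 of them the same way in both histories, and 22 of the 23 earlier calls were among them. Peg3 was the exception (0.80, adjusted p = 0.116). The hepatocyte genes still had a median of 0.54 log2, and 1 of the 20 was called, Tdo2, a tryptophan dioxygenase (0.66 ± 0.13, adjusted p = 0.0561).

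Other metabolic genes appeared among the 57 lower calls on the 20 arrays, and they are named here after their values were seen. Gys2, the liver-type glycogen synthase that adipocytes also use, differed by -1.37 ± 0.23 log2 (limma adjusted p = 0.0284). Mogat2, which makes diacylglycerol, differed by -0.74 ± 0.15, and Gpt, alanine aminotransferase, by -0.81 ± 0.12. In glycolysis Tpi1 and Pfkfb4 differed by -0.46 ± 0.10 and -0.40 ± 0.07. S100a8, a calcium-binding protein of neutrophils, differed by -1.37 ± 0.25, but it was the only called gene of 12 for monocytes and neutrophils. The median of that list was 0.09, and S100a9, its usual partner, stood at 0.25 ± 0.24 (adjusted p = 0.874). On the higher side stood Vnn1 (1.15 ± 0.19), the dimmer Cish probe set (1.19 ± 0.19), the complement gene C2 (0.64 ± 0.13) and Fkbp5, a target of the glucocorticoid receptor (0.66 ± 0.14). With all 24 arrays Gys2 differed by -0.79 ± 0.30 (adjusted p = 0.528) and Fkbp5 by 0.51 ± 0.13 (adjusted p = 0.222).

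Adipocyte identity and lipid storage genes held 0 calls among 21 measured, with a median of -0.05 log2. Adipoq and Lep, the genes of adiponectin and leptin, differed by 0.04 ± 0.05 and -0.15 ± 0.16. Gpd1, which supplies glycerol phosphate for triglycerides, was the only member in the looser set, at -0.46 ± 0.12 (limma adjusted p = 0.256). Its median log2 level was 9.42 in lean-HFD mice, against 9.63 in lean mice, and 9.10 in formerly obese-HFD mice, against 9.64 in formerly obese mice. Dgat2, the enzyme of the last step of triglyceride synthesis, differed by -0.38 and Slc2a4, the insulin-responsive glucose transporter, by -0.28. Among 12 lipolysis genes 0 were called and 0 were in the looser set.

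Clock genes and stress genes gave small differences that did not pass the adjusted test. Of 16 clock genes 0 were called and 2 were in the looser set, Bhlhe40 at -0.46 and Ciart at -0.38 log2, both repressors of the clock. Bhlhe41 at -0.33 and Nr1d1 at -0.31 had unadjusted p of 0.000778 and 0.00406 and differed by less than the fold required. Of 17 endoplasmic reticulum stress genes 16 were higher, beside 10847 of all 22184 genes. The 17 had a median of 0.12 log2, 0 calls and 0 members in the looser set. Pdia6, a disulfide isomerase, had the largest value among those with an unadjusted p under 0.01, 0.22 log2. Of 14 glucocorticoid-responsive genes Fkbp5 alone was in the looser set, and 0 were called.

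Immune and stromal lists held 0 calls apart from Col15a1. The medians on the average were -0.07 log2 for 20 macrophage markers, 0.04 for 14 T cell markers, -0.02 for 12 B and plasma cell markers and -0.00221 for 24 chemokines and cytokines. Lists of other tissues varied. Skeletal muscle genes had medians of the same sign in both histories, -0.04 in lean and -0.11 in formerly obese mice, as did hepatocyte genes. Other lists had medians of opposite sign in the 2 histories. Motile cilia genes had a median of -0.62 in lean and 0.74 in formerly obese mice, smooth muscle genes 0.15 and -0.58, and genes of epididymis, sperm and testis 0.29 and -0.25, each with 0 calls among 13, 10 and 13 measured. Their part in the other results was not tested.

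The difference between the histories was tested as an interaction, formerly obese-HFD minus formerly obese against lean-HFD minus lean. It gave 0 calls by limma, with 1904 probe sets at an unadjusted p under 0.05 (4.61%) and 239 in the looser set (0.578%), and 0 calls with the score as covariate, with 2054 (4.97%). The smallest unadjusted p among named genes belonged to Tuft1, Mcm9, Cdhr1, Pyroxd2 and Slc35f3, with limma adjusted p of 0.989 to 0.996. For Acly the 2 responses differed by -0.13 ± 0.34 log2 and for Fasn by 0.02 ± 0.38 (limma adjusted p = 1 each). A p that misses the threshold does not show that the histories responded alike.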

How the data were processed

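Gonadal white fat RNA was amplified (Ovation PicoSL and Encore Biotin kits) and hybridised to Affymetrix Mouse Gene 2.0 ST arrays. The deposited values are log2 signals, made by the authors with RMA (background correction, quantile normalization and summary of probes by median polish), and were used as given. The submitters' processing notes name Affymetrix Expression Console 1.4.1.46. RMA forces the arrays onto 1 distribution, so changes are relative to all transcripts, and amplification can compress or distort fold changes. The value table had 41345 probe sets, of which 23525 carried 1 gene symbol, 1816 several and 16004 none. No array pair was identical (0 pairs), and slide or scan details were not used here.

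One limma model (limma 3.58.1, R 4.3.3) with 4 group means was fitted to all probe sets of 24 arrays, with lmFit and eBayes, and the mean of both 48 h differences, each difference and the interaction were tested, with and without the hepatocyte score as covariate. Calls needed an adjusted p under 0.10 (Benjamini-Hochberg), a fold over 1.3 and a group mean over 16, which is 4 on the log2 scale. Replicates are separate arrays as labelled. Members, gene lists and tests were chosen with earlier results of these data known. For a gene with several probe sets the brightest was named. Named genes were up to 12 in each direction with the largest fold among calls, filled from the looser set, up to 3 called members of each list, Alb, Apoa1, Fgb, Lep and Adipoq, genes called only with or without the score, and the 5 with the smallest interaction p. Acss2, Cish, Scd1, Acaca, Gys2, Gpd1, Fkbp5 and the genes of the imprinted list and of the 20-array fit were added once their values had been seen. Further list members in the text, Bhlhe40, Ciart, Nsdhl, Cox7a1 and Pdia6 among them, also lay outside the naming rule. The 43 lists held 683 entries, of which 623 matched a probe set.

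On simulated data with 200 changed probe sets, the 24-array fit recovered 52 of 67 at 0.5 log2, 62 of 67 at 1 log2 and 66 of 66 at 2 log2, with 9 false calls, and it made 2 calls where nothing was changed. These counts hold for the simulated data alone, and recovery on the real arrays was not measured. Alternatives covered thresholds, filters, array weights, a moderated trend, the samples in the fit, each array left out, the replicate number as a block, other forms of the score, and the 20 arrays. Figures used Python 3.11.15 and matplotlib 3.10.9.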

Additional observations from a re-analysis of the deposited data

Results flagged for a closer look

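Of 204 sets of 6 arrays examined for a single distant array (Dixon's test at 95%), 15 had one (7.35%). Chance gives about 1 in 20 for independent sets. These sets were not independent, since hepatocyte genes vary together and 1 probe set was counted under 2 identifiers. The rate therefore cannot show an excess. Formerly obese replicate 1 stood above the other formerly obese arrays in hepatocyte transcripts. Its hepatocyte score was 7.902, beside 6.051 for the next array, and its log2 levels were 6.588 for Apoa1, 6.419 for Fga, 6.617 for Fgg, 7.152 for Pzp and 5.742 for Ces3a, a liver carboxylesterase. The unnamed probe set present under 2 identifiers, probe sets 17549386 and 17549764, was also highest there, at 7.234, beside 6.334 in the next array. Lean replicate 4 stood apart for Fga (7.73) and for Mug1, a plasma protease inhibitor (7.879). For the lipogenic genes the only distant array was lean-HFD replicate 2, with an Acly level of 9.502 beside 8.6 in the next lean-HFD array.

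Other distant arrays were formerly obese-HFD replicate 6 for Gys2 (5.559, the next being 4.533), and formerly obese replicate 5 for Pla2g2e (7.616, the lowest, the next being 8.247). Lean-HFD replicate 6 was lowest for Pyroxd2 (3.877) and lean replicate 6 highest for Mcm9 (5.495).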

How the results depend on the processing

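All 14 named genes called on the average kept their direction under every setting run. The 23 calls, all in the same direction in both histories, became 6 at an adjusted p under 0.05 and 311 (309 in the same direction) at an unadjusted p under 0.01. They became 38 with array weights, 48 with the obese arrays in the fit and 10 with the score as covariate. With the 4 arrays of high score left out, a choice made after the values were seen, there were 80 calls, 79 in the same direction. Without a level filter, with a fold over 1.5, without a fold filter, with 1-symbol probe sets only, with a robust trend and with array medians removed, the counts stayed within 1.5 times of 23. Acss2 was called under 6 of 13 other settings.

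The 10 calls made with the score became 0 at an adjusted p under 0.05, 329 at an unadjusted p under 0.01, 23 with array weights, 66 with 30 arrays, 21 without the 4 arrays, 29 with the mean of the further hepatocyte genes in place of the score, and 142 with the score centred within each group (106 of them up, against 3 of the 10). Calls in lean mice, 0 in the report, were 407 at an unadjusted p under 0.01, 3 with a robust trend, 4 with array weights, 5 with 30 arrays, 1 in a fit of 12 arrays and 7 without the 4 arrays. In formerly obese mice and for the interaction an unadjusted p under 0.01 gave 227 and 239. With the score, Fga (-0.02185), Serpina1c (-0.01768) and Alb (-0.284) turned below 0.

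With the replicate number as a block, 7 probe sets were called on the average, all 7 in the same direction and 6 of them among the 23, with 0 when the score was added, 4 in lean mice and 1 for the interaction. Of the 14 named genes 3 were still called under the block, Acly and Elovl6 among them, while Fasn (-1.13, limma adjusted p = 0.132) and Me1 (-0.71, limma adjusted p = 0.217) were not. The numbers are no pairing in the labels, and 5 of 24 arrays correlated best with an array of their own number (mean r of deviations -0.018 within and 0.00439 between numbers).

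Leaving out 1 array gave 5 to 57 calls on the average and as many in the same direction, 0 to 29 with the score, 0 to 12 in lean mice, and 0 to 1 in formerly obese mice and for the interaction. On the average the count was 5 without lean replicate 6 or formerly obese replicate 3, and 7 to 12 without lean-HFD replicates 3, 4, 5 or 6, lean replicates 1, 3 or 5, formerly obese-HFD replicates 1, 3 or 5, or formerly obese replicates 1, 2, 4 or 6. It was 37 without lean replicate 2 or formerly obese-HFD replicate 6, 40 without lean replicate 4 and 57 without lean-HFD replicate 2. With the score it was 0 without lean-HFD replicates 3 to 6, lean replicates 1 or 3, formerly obese-HFD replicate 3, or formerly obese replicates 1, 3, 4 or 6. In lean mice the highest count, 12, came without lean-HFD replicate 3, and in formerly obese mice the 1 call came without formerly obese-HFD replicate 6. The causes were not tested. Groups of 6 arrays limit the precision, most for genes of low signal.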

Other observations

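Cholesterol synthesis and uptake genes, which share SREBP control with lipogenesis, leaned the same way by small amounts. Of 19 measured, 16 were lower after 48 h of HFD and 3 higher, with a median of -0.12 log2, 0 calls and 1 gene in the looser set, Nsdhl, a sterol dehydrogenase, at -0.54. Over all 22184 genes 11332 were lower and 10847 higher. Of 22 mitochondrial respiration genes 18 were lower, with a median of -0.04 and 0 calls, and the looser set held Cox7a1, a muscle and brown fat subunit of cytochrome oxidase, at -0.79. Of 15 NK and cytotoxic cell genes 12 were higher, with a median of 0.13 and 0 calls.

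Levels of Peg3 and Plagl1 in obese mice, which were outside the fit, are given with no test. Peg3 had a median log2 level of 8.91 in obese mice (8.19 to 9.22), beside 8.26 in lean-HFD, 8.25 in formerly obese-HFD and 7.56 in lean mice. Plagl1 had a median of 6.91 in obese mice (6.47 to 7.71), beside 7.54 in lean-HFD, 7.11 in formerly obese-HFD and 8.45 in lean mice. The obese arrays of both genes overlapped with those of both 48 h groups.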
